A study of Mus musculus with 12 samples.

Results

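The genes described here are the adult alpha globin genes Hba-a1 and Hba-a2, the adult beta globin genes Hbb-bs, Hbb-bt, Hbb-b1 and Hbb-b2, and Alas2, measured by RNA sequencing of mouse testes. They were chosen by gene symbol and are 7 of the 20788 genes in the deposited table. Of the 7, 6 had enough reads to enter the test, among 16395 genes tested, and Hba-a2 did not. The choice was made with results of these data in view: Hbb-bs had been seen to differ between overexpression and its control, and the beta globin genes between the control groups. In those comparisons the members' values are therefore a description.

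The study sequenced total RNA from testes of F1 mice of a strain spelled IRC mouse in the labels. Virus carried either an overexpression (8276OV) or an inhibition (8276KD) construct for lncRNA8276, named only so in the labels and by name a long non-coding RNA, and the groups called 5NC and 3NC are taken as controls. Each of the 4 groups has 3 libraries: overexpression, its control 5NC, knockdown, and its control 3NC, paired as the design text lists them. The labels give no age, virus type, promoter, targeted cell or litter. Expression of lncRNA8276 is not analysed here. Whether the 3 libraries of a group represent different animals is not stated, so the p-values speak only of variation among these libraries, part of which may be technical.

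Haemoglobin, the oxygen carrier of red cells, is a tetramer of alpha and beta globin chains, each holding a haem group. Red cell precursors make the globin messages in very large amounts, and Alas2 is the form of 5-aminolevulinate synthase that starts haem synthesis in those cells. Laboratory mice carry alternative forms of the beta globin locus: the s haplotype, found in C57BL/6, has Hbb-bs and Hbb-bt as its adult genes, and the d haplotype has Hbb-b1 (beta-major) and Hbb-b2 (beta-minor) in their place.

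Total estimated counts ran from 13485479 to 15771655 per library, and 5NC replicates 2 and 3 and overexpression replicate 2 were the lowest. 3NC replicate 2 stood apart in leukocyte genes, with a summed level of 450 counts per 1e6 (CPM) over 10 genes against 48.9 to 73.7 in the other 11 libraries. Its summed level of 9 neutrophil genes was 34.0 CPM, against 1.69 to 10.9 in the others. Germ cell markers held 12600 to 18200 CPM in every library, with the protamine gene Prm1 at 9130 to 13100 FPKM (fragments scaled for transcript length and library size), as the labelled tissue has them. No gene of the lists for germ cells, Sertoli cells, Leydig cells, endothelium, leukocytes, neutrophils, platelets or epididymis passed edgeR's quasi-likelihood test in the 4 comparisons made here. Of the 60 genes tested in those lists, 4, 10, 11 and 0 had an unadjusted p under 0.05 in overexpression against 5NC, knockdown against 3NC, 5NC against 3NC and overexpression against knockdown, where DESeq2 called 2, 1, 2 and 0 and limma-voom called 0. Over all tested genes 15.3%, 8.69%, 12.9% and 2.09% had such a p.

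How far the members can be told apart depends on their sequences, so the stretches around the base that separates each pair are shown first. In the coding sequences of the GENCODE transcripts on GRCm38, Hba-a1 and Hba-a2 are both 429 bases long and differ at 1 base, an identity of 99.8%, with 380 identical bases in a row. Hbb-bs and Hbb-bt are both 444 bases long and also differ at 1 base, with an identical run of 416. The lines below give coding bases 351 to 411 of the alpha pair and 384 to 444 of the beta pair, 5′ to 3′, with the differing base in capitals.
Hba-a1: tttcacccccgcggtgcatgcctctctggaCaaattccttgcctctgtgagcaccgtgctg
Hba-a2: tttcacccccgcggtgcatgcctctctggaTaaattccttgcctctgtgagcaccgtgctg
Hbb-bs: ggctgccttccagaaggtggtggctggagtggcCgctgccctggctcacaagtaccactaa
Hbb-bt: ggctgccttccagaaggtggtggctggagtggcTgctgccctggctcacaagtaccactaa

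The deposited counts show signs of reads divided between genes. The estimated counts of Hba-a1 and of Hba-a2 were each whole numbers (within 0.02) in 3 of 12 libraries, while their sum was whole in all 12, at 211 to 697. Hbb-bs was whole in 3 libraries, Hbb-bt in 2 and Hbb-b1 in 2, and only the sum of these 3 genes was whole in all 12, at 214 to 499. Reads were thus divided within the alpha pair and among Hbb-bs, Hbb-bt and Hbb-b1, and the level of any 1 of them rests on how the authors' counting split those reads. The sequence of Hbb-b1 was not compared with those of Hbb-bs and Hbb-bt. Hbb-b2 and Alas2 were whole in all 12 libraries, at 9 to 115 and 242 to 350 counts.

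The alpha genes lie on chromosome 11, Hba-a1 at 32283511 to 32284465 and Hba-a2 at 32296489 to 32297298, both on the plus strand of GRCm38 and both protein coding. Hbb-bs at 103826534 to 103828096 and Hbb-bt at 103812524 to 103813996 lie on the minus strand of chromosome 7, and Alas2 lies on the plus strand of the X chromosome at 150547375 to 150570638. Positions are from GENCODE M21. The annotation used here holds no entry for Hbb-b1 or Hbb-b2.

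Because the alpha genes and the beta genes share promoter elements, the 130 bases before the start site of each member with an entry in the RefSeq table (GRCm38.p6) are also shown, 5′ to 3′ in the direction of the gene. Capitals mark 4 motifs on either strand: the CCAAT box (CCAAT), the CACCC box (CACCC), the core of the TATA box (ATATAA) and a GATA motif (AGATAA). In Hbb-bt a reverse copy of the first adjoins a forward one. Distances are from the RefSeq start sites, which differ from the GENCODE gene bounds given above. By those bounds the Hba-a1 and Hbb-bs windows lie inside the genes, and the other windows overlap their genes in part.
Hba-a1 (chr11:32283542-32283671, plus strand): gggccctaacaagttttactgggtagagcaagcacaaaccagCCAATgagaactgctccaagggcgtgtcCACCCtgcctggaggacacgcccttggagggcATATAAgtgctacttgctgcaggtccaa
Hba-a2 (chr11:32296362-32296491, plus strand): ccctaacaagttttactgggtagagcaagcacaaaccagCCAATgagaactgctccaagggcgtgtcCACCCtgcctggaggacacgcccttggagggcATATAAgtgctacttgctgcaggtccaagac
Hbb-bs (chr7:103827929-103828058, minus strand): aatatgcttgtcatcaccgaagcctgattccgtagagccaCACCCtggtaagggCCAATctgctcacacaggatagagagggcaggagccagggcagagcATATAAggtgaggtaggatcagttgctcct
Hbb-bt (chr7:103813924-103814053, minus strand): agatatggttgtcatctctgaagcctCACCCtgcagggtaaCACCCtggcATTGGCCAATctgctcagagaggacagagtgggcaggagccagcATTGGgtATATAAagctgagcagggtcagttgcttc
Alas2 (chrX:150547287-150547416, plus strand): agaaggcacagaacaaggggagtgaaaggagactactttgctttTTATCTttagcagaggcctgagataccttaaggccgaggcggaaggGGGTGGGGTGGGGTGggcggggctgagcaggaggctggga

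The 4 globin promoters hold the CCAAT box, the CACCC box and the TATA core in these windows, and the Alas2 window holds only the CACCC box of these. The CCAAT box began 88, 91, 76 and 75 bases upstream in Hba-a1, Hba-a2, Hbb-bs and Hbb-bt, and the TATA core began 28, 31, 30 and 29 bases upstream. Among 32851 promoters of the same length, 22.4% held the CCAAT box on either strand, 4.75% the TATA core, 33.7% the CACCC box and 4.79% the GATA motif. All 5 members held the CACCC box, the motif bound by Klf1-type factors, with 2 copies in Hbb-bt and 3 adjoining copies on the reverse strand in Alas2. It lay nearer to the start site than the CCAAT box in the alpha genes, at 60 and 63 bases upstream, and farther from it in Hbb-bs, at 90, and Hbb-bt, at 104 and 89. The GATA motif was found in Alas2 alone among the 5, on the reverse strand. These are matches of letters, and factor binding was not measured.

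The authors' counting assigned nearly all alpha globin reads to Hba-a1, a split between near-identical genes that does not show which gene supplied them. Hba-a1 varied more in level within groups than between them. Its TMM-normalised level was 36.8, 35.6 and 29.2 CPM in 5NC replicates 1, 2 and 3, and 40.7, 22.0 and 37.4 CPM with overexpression. It was 45.2, 26.7 and 14.1 CPM in 3NC and 37.9, 35.6 and 28.5 CPM with knockdown. The 4 groups overlapped, and 3NC alone spanned the whole range, a highest-to-lowest ratio of 3.20. Group means were 33.9 ± 4.09, 33.4 ± 9.98, 28.7 ± 15.6 and 34.0 ± 4.92 CPM (SD, n = 3) in 5NC, overexpression, 3NC and knockdown.

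Hba-a1 did not pass edgeR's quasi-likelihood test in either comparison that played no part in choosing the members. With knockdown against 3NC the log2 fold change was 0.25 ± 0.357 (SE, adjusted p = 0.802), and leaving out 3NC replicate 3 turned it to -0.08. For overexpression against knockdown it was -0.03 ± 0.356 (edgeR adjusted p = 1.0). Hba-a2, the near-identical second copy, was listed at 0 to 0.995 CPM and received 0 to 2.75% of the alpha pool in a library. In bulk tissue, fewer cells of a type and less RNA per cell cannot be told apart from the level of a gene, for these and all genes below. Which beta globin haplotypes the animals carried was not tested.

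Among the beta globin genes, Hbb-bs and Hbb-bt were almost without reads in the 5NC libraries and present in every library of the other 3 groups. Hbb-bs had estimated counts of 0, 0 and 1.03 in 5NC replicates 1, 2 and 3, which are levels of 0, 0 and 0.0719 CPM. Its level was 3.35, 1.25 and 9.55 CPM with overexpression. It was 13.0, 14.2 and 6.02 CPM in 3NC and 7.73, 2.92 and 2.72 CPM with knockdown. Every library outside 5NC lay above every 5NC library, and overexpression, 3NC and knockdown overlapped one another. Knockdown replicates 2 and 3 and overexpression replicates 1 and 2 lay below all 3NC libraries.

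Hbb-bt, the second adult gene of the same haplotype, was likewise lowest in 5NC and highest in 3NC, at a lower level. Its overexpression mean lay below its knockdown mean, the reverse of Hbb-bs, and those groups overlapped for both genes. In 5NC its estimated counts were 0, 1.02 and 0, a highest level of 0.0706 CPM. It reached 1.18, 0.147 and 1.66 CPM with overexpression, 2.79, 4.32 and 1.08 CPM in 3NC, and 2.23, 0.908 and 0.713 CPM with knockdown. As with Hbb-bs, no 5NC library reached the lowest library of another group, and 3NC had the highest mean, 2.73 ± 1.62 CPM (SD, n = 3). On the FPKM scale, which corrects for length, Hbb-bt made up 11.9 to 26.7% of the summed level of Hbb-bs and Hbb-bt in the 9 libraries outside 5NC.

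Hbb-b1 and Hbb-b2, the adult genes of the d haplotype, had reads in all 12 libraries and were highest in 5NC. Hbb-b1 stood at 21.7, 35.2 and 25.8 CPM in 5NC and at 17.0, 19.8 and 9.28 CPM with overexpression. It stood at 9.95, 7.95 and 7.71 CPM in 3NC and at 10.9, 14.3 and 10.4 CPM with knockdown. The 5NC libraries lay above all 9 others, and the 3NC libraries lay below all knockdown libraries.

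Hbb-b2, whose whole counts gave no sign of divided reads, had 3.96, 8.12 and 5.68 CPM in 5NC and 3.68, 3.74 and 2.52 CPM with overexpression. It had 2.32, 1.5 and 0.609 CPM in 3NC and 2.17, 2.79 and 3.04 CPM with knockdown. The order of the group means was that of Hbb-b1: 5.92 ± 2.09, 3.31 ± 0.689, 2.67 ± 0.449 and 1.48 ± 0.857 CPM (SD, n = 3) in 5NC, overexpression, knockdown and 3NC. The 5NC libraries again lay above all others, and overexpression and knockdown overlapped. On the FPKM scale Hbb-b2 made up 7.36 to 22.6% of the summed level of Hbb-b1 and Hbb-b2, with the lowest share in 3NC replicate 3.

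**Figure D1:**
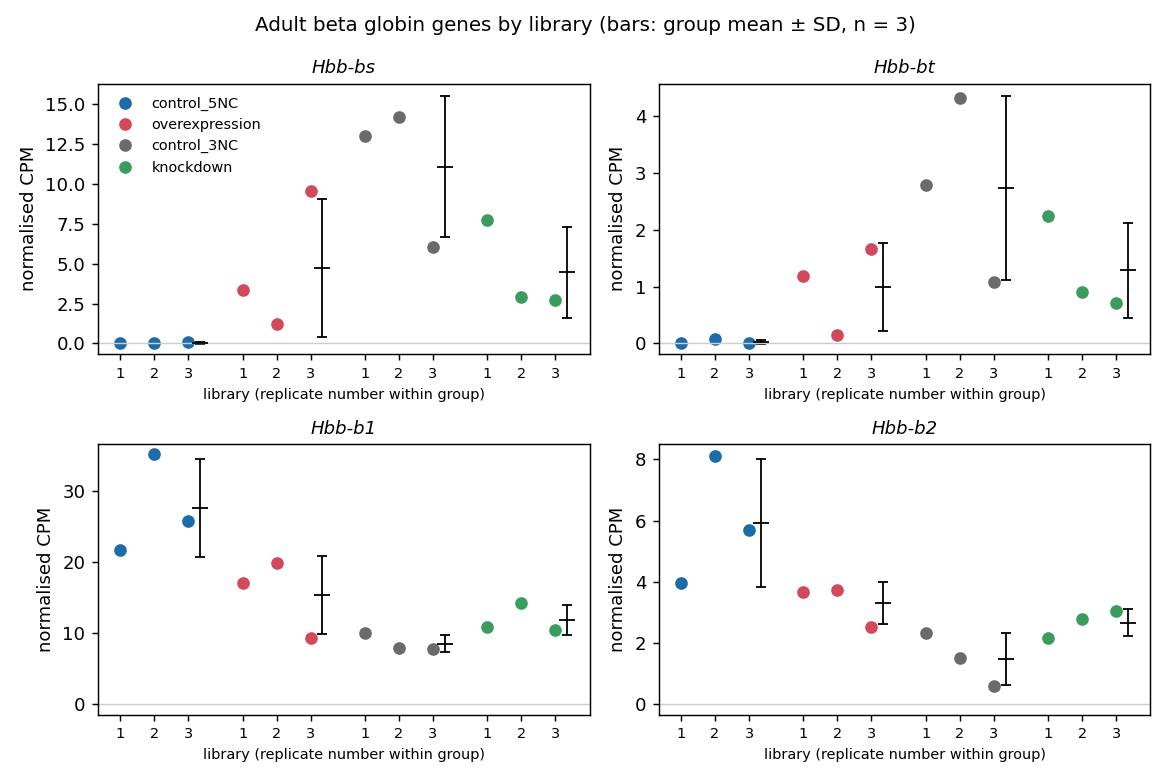
Normalised level (CPM) of the 4 adult beta globin genes in each library, by group; points are libraries and bars show the group mean ± SD (n = 3). Hbb-bs and Hbb-bt lie at 0 to 0.0719 CPM in 5NC and above that in the other groups, while Hbb-b1 and Hbb-b2 are highest in 5NC.

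In the comparisons used to choose the members, the sizes were as follows. Summed over 3 libraries, Hbb-bs had 212 rounded counts with overexpression, 512 in 3NC and 208 with knockdown against 1 in 5NC. Scaled for library size these are ratios of 212 (95% counting interval 37.7 to 8430), 491 (87.8 to 19400) and 197 (34.9 to 7800). For Hbb-bt, 45, 127 and 60 counts against 1 gave ratios of 45.1 (7.69 to 1820), 122 (21.5 to 4850) and 56.7 (9.8 to 2280). The intervals cover counting error of the pooled counts only and leave out the spread between the libraries of a group. Without molecular identifiers several reads can come from 1 molecule, so even counting error may be understated. The intervals are wide because 5NC holds 1 count.

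Hbb-b1 moved the other way. It was lower with overexpression than in 5NC by a log2 fold change of -0.84 ± 0.257 (SE) and higher in 5NC than in 3NC by 1.69 ± 0.265, and Hbb-b2 differed by -0.83 ± 0.375 and 1.99 ± 0.397. With edgeR adjusted p under 0.05 as the threshold, 1 member (Hbb-bs) passed in overexpression against 5NC, where 0.476% of all tested genes did. In 5NC against 3NC, 3 members (Hbb-bs, Hbb-bt and Hbb-b1) passed, where 0.244% of all tested genes did. Nothing is read from these counts, because the choice of members used the same contrasts, and the 2 comparisons share the 5NC libraries. Under limma-voom 0 members passed in either, with 4 at an unadjusted p under 0.05 in each. Hbb-bs kept its call in overexpression against 5NC only without overexpression replicate 2 (edgeR adjusted p = 0.0192) and lost it without any other library of those groups (up to 0.253). In 5NC against 3NC the calls on Hbb-bs, Hbb-bt and Hbb-b1 were each lost without any 1 of the 5NC libraries or without 3NC replicate 1 (up to 0.222, 0.251 and 0.173). Without 3NC replicate 2 the 3 calls in 5NC against 3NC remained (edgeR adjusted p = 0.0435, 0.0477 and 0.0416).

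Neither comparison left out of the choice of members gave a call on a beta globin gene. With knockdown against 3NC, Hbb-bs had a log2 fold change of -1.31 ± 0.66 (SE, adjusted p = 0.563) and Hbb-bt of -1.08 ± 0.677 (adjusted p = 0.587). Hbb-b1 and Hbb-b2 had positive values, 0.47 ± 0.266 (adjusted p = 0.567) and 0.85 ± 0.401 (adjusted p = 0.559). Of the 6 members tested, 0 passed edgeR's test in this comparison, where 0.0183% of all tested genes did, and 0 had an unadjusted p under 0.05. DESeq2 and limma-voom also called 0, with 1 and 2 members at an unadjusted p under 0.05. The Hbb-b1 libraries of the groups did not overlap. How many of all tested genes show no overlap in this comparison was not counted, so nothing is read from it.

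Overexpression and knockdown, which have no control library in common, overlapped for every member. The log2 fold changes of overexpression against knockdown were 0.09 ± 0.667 for Hbb-bs, -0.35 ± 0.715 for Hbb-bt, 0.37 ± 0.261 for Hbb-b1 and 0.31 ± 0.384 for Hbb-b2 (SE, edgeR adjusted p = 1.0 for each). Members called numbered 0, as did those at an unadjusted p under 0.05, where 0% of all tested genes passed. DESeq2 and limma-voom called 0 members as well. With standard errors of 0.667 for Hbb-bs and 0.715 for Hbb-bt, only large differences in these genes between the groups were detectable.

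Set against each other within a library, the genes of the haplotypes gave a share that ranged from 0 to 66.3%. This share, the estimated counts of Hbb-bs and Hbb-bt among those of all 4 adult beta globin genes, rests on 228 to 614 counts per library. It is given with its exact 95% binomial interval. The interval treats rounded estimated counts as observed reads and leaves out the uncertainty in how divided reads were split, so it is too narrow for the share. In 5NC it was 0% (0 to 0.898%), 0.166% (0.00412 to 0.904%) and 0.235% (0.00577 to 1.26%). With overexpression it was 17.9% (14.3 to 22.2%), 5.67% (3.4 to 8.59%) and 48.6% (43.3 to 54.1%). Libraries of the overexpression group therefore differed from one another by far more than counting error, and none of them came down to the 5NC values.

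In 3NC the share was 56.4% (51.4 to 61.1%), 66.3% (61.6 to 70.6%) and 46.2% (39.5 to 52.8%). With knockdown it was 43.2% (38.1 to 48.6%), 18.5% (14.3 to 23.0%) and 20.4% (15.6 to 25.7%). Group means were 0.134 ± 0.121% in 5NC, 24.1 ± 22.1% with overexpression, 56.3 ± 10.1% in 3NC and 27.4 ± 13.7% with knockdown (SD, n = 3). Without overexpression replicate 3 the overexpression mean was 11.8%, and without replicate 2 it was 33.2%. All knockdown libraries lay below all 3NC libraries, while the overexpression group overlapped both. Every library outside 5NC thus carried reads assigned to both haplotypes, and the 5NC libraries carried almost none assigned to Hbb-bs and Hbb-bt.

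Each haplotype pair taken alone gave the same order of group means, with 5NC lowest and 3NC highest. Hbb-bs, Hbb-bt and Hbb-b1 drew on one pool of divided reads, while the Hbb-b2 counts were whole. The shares of the pairs are therefore not independent of each other, since Hbb-bs and Hbb-bt both come from that pool. Hbb-bs as a share of Hbb-bs plus Hbb-b1 was 0, 0 and 0.286% in 5NC, 16.3, 5.93 and 50.6% with overexpression, 56.7, 64.2 and 44.0% in 3NC and 41.5, 17.0 and 20.9% with knockdown. Hbb-bt as a share of Hbb-bt plus Hbb-b2 was 0, 0.879 and 0%, then 24.4, 4.28 and 39.6%, then 54.7, 74.2 and 64.3%, then 50.5, 25.2 and 18.6% in the same order. The 95% intervals of the shares overlapped in all 12 libraries. The median difference between them was 5.2 percentage points, and the widest, 20.3 points, was in 3NC replicate 3.

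**Figure D2:**
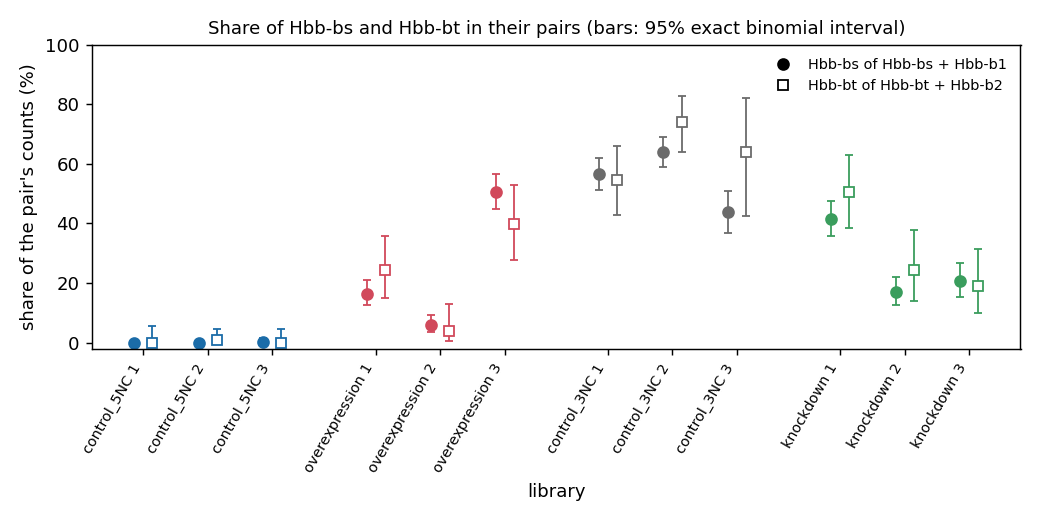
Share of Hbb-bs in Hbb-bs plus Hbb-b1 and of Hbb-bt in Hbb-bt plus Hbb-b2 (percent of estimated counts) in each library; bars are exact 95% binomial intervals. Both shares are near 0 in the 5NC libraries, 4.28 to 50.6% with overexpression and 44.0 to 74.2% in 3NC.

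Summed over the haplotypes, the group means of beta globin lay closer together, as a ratio of the highest to the lowest, than those of any of its 4 genes. The summed level was 33.5 ± 8.96 CPM in 5NC, 24.4 ± 1.22 with overexpression, 23.8 ± 7.3 in 3NC and 20.3 ± 3.1 with knockdown (SD, n = 3). The alpha genes together stood at 34.2 ± 3.69, 33.6 ± 9.91, 29.2 ± 16.1 and 34.3 ± 4.81 CPM in the same order. All 6 globins summed to between 29.7 CPM in 3NC replicate 3 and 79.3 CPM in 5NC replicate 2, a ratio of 2.67. Group means of that sum were 67.8 ± 9.97, 58.1 ± 9.67, 53.0 ± 22.4 and 54.5 ± 7.89 CPM. The groups overlapped except that the 5NC libraries, at 61.6 CPM or more, lay above the knockdown libraries, at 61.2 CPM or less.

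**Figure D3:**
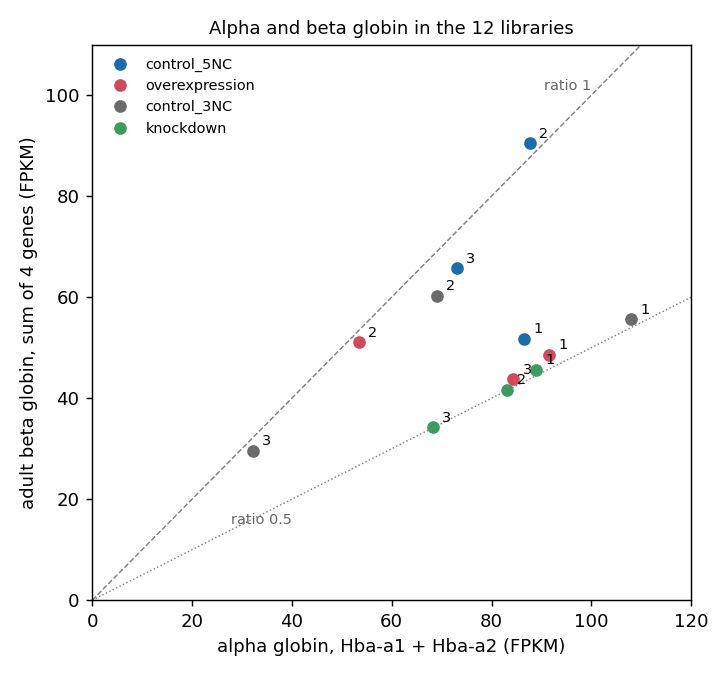
Summed adult beta globin against summed alpha globin in each library, both in FPKM, coloured by group, with lines at equal levels and at a beta-to-alpha ratio of 0.5. The ratio is 0.5 to 0.599 in 7 libraries and 0.874 to 1.03 in the other 5, which come from 5NC, overexpression and 3NC.

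Alas2, the haem synthesis enzyme of red cell precursors, had the smallest spread of the tested members. Its level was 19.0, 20.7 and 18.8 CPM in 5NC and 17.9, 18.2 and 16.2 CPM with overexpression. It was 19.4, 20.9 and 18.9 CPM in 3NC and 22.4, 18.2 and 15.7 CPM with knockdown. The highest library was 1.43 times the lowest, against 3.20 for Hba-a1, 4.56 for Hbb-b1 and 13.3 for Hbb-b2. The coefficient of variation over 12 libraries was 9.98% for Alas2, 26.7% for Hba-a1, 53.4% for Hbb-b1, 59.3% for Hbb-b2, 99.3% for Hbb-bs and 105% for Hbb-bt.

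In FPKM, Alas2 stood at 10.8 ± 0.659 in 5NC, 9.37 ± 0.804 with overexpression, 10.8 ± 1.13 in 3NC and 10.2 ± 1.82 with knockdown (SD, n = 3). The summed globin FPKM was 6.26 times that of Alas2 in 3NC replicate 3 and 15.6 times in 3NC replicate 1, the lowest and highest of the 12 libraries. Alas2 did not pass in knockdown against 3NC (log2 fold change -0.08 ± 0.127, SE, adjusted p = 0.828) or in overexpression against knockdown (-0.10 ± 0.127, adjusted p = 1.0), by edgeR. Against 5NC the overexpression libraries lay lower without overlap, by -0.16 ± 0.127, and 5NC and 3NC differed by -0.02 ± 0.127. Nothing is read from the lack of overlap, since its share among all tested genes was not counted.

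**Figure D4:**
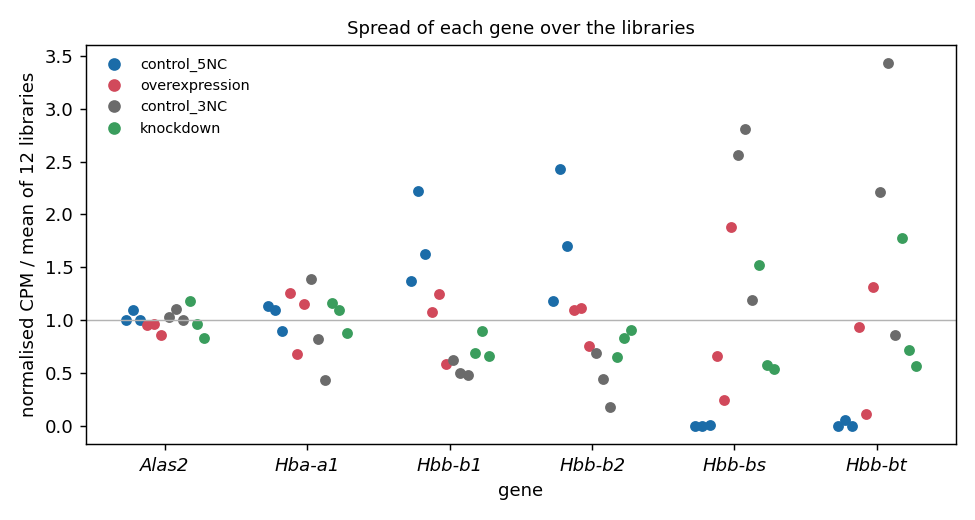
Level of each tested member in each library, as normalised CPM divided by the gene's mean over the 12 libraries; points are libraries coloured by group. The Alas2 points lie close to 1, while Hbb-bs and Hbb-bt run from 0 to several times their mean.

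Other genes of red cells and of haem were taken as 6 lists, chosen with earlier results of these data known: other globins, haem synthesis, iron uptake and haem turnover, the red cell membrane, erythroid regulators, and other red cell genes. Together they hold 79 genes, of which 74 are in the table and 58 were tested. By edgeR's quasi-likelihood test 0 passed in any of the 4 comparisons. At an unadjusted p under 0.05 there were 8 in overexpression against 5NC, 6 in knockdown against 3NC, 7 in 5NC against 3NC and 0 in overexpression against knockdown. Over all tested genes, 15.3%, 8.69%, 12.9% and 2.09% had such a p in these comparisons, so the shares of the 58 lay near or below the background. DESeq2 called 1, Tmod1, in overexpression against 5NC and 0 elsewhere, and limma-voom called 0. Tmod1, which caps actin filaments in the red cell skeleton, had a log2 fold change of 0.53 ± 0.135 (SE, edgeR adjusted p = 0.0992), and passed without overexpression replicate 2 (adjusted p = 0.0438).

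Markers that define mature red cells and late precursors were at or near 0. The anion exchanger Slc4a1 ran from 0.0734 to 0.591 CPM, the Rh-associated glycoprotein Rhag from 0 to 0.0734 and the membrane protein Epb42 from 0 to 0.0639. In FPKM, Slc4a1 had a median of 0.08, against a lowest value of 31.9 for Hba-a1. The embryonic alpha-like gene Hba-x was at 0 in all libraries and the embryonic beta-like gene Hbb-y at 0 to 0.0648 CPM. Globin messages were thus present beside almost no message for these membrane proteins.

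Several genes known from red cells had higher levels, and germ or somatic cells of the testis can express some of them. Hemgn, a nuclear protein of blood precursors, ran from 88.6 to 163 CPM, and Bpgm, which makes 2,3-bisphosphoglycerate, from 86.9 to 113. The transcription factor Gata1, which Sertoli cells also express, ran from 7.30 to 11.1 CPM, and Klf1 from 1.01 to 8.89. Gata1 had a log2 fold change of 0.49 ± 0.118 with knockdown against 3NC (SE, edgeR adjusted p = 0.559). The erythropoietin receptor Epor stayed between 0.494 and 1.70 CPM.

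The haem synthesis list was tested in full, 12 of 12, and its median log2 fold change was 0.0971 in overexpression against 5NC and 0.0174 in knockdown against 3NC, beside -0.0122 and -0.0255 over all tested genes. Alas1, the form of the enzyme made in all tissues, had a median of 38.8 FPKM over the 12 libraries, and Alad, which makes the next step, 24.8 FPKM. Fech, which inserts the iron, had 11.3 FPKM. Slc25a37, the mitochondrial iron importer, had a log2 fold change of 0.44 ± 0.173 in overexpression against 5NC (SE, edgeR adjusted p = 0.24). Alas1 thus stood above Alas2 per length in these testes.

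The other lists were tested in part, 2 of 7 genes in the table for other globins, 15 of 15 for iron and haem turnover, 11 of 17 for the membrane, 10 of 11 for regulators and 8 of 12 for other red cell genes. In knockdown against 3NC their medians were -0.164, -0.193, 0.189, 0.268 and 0.0143 on the log2 scale. In overexpression against 5NC they were 0.0243, 0.142, 0.239, 0.0118 and -0.05. Hp, the haemoglobin-binding haptoglobin, ran from 0.541 to 30.2 CPM, with a log2 fold change of -2.60 ± 1.05 in knockdown against 3NC (SE, edgeR adjusted p = 0.559), and of -0.17 without 3NC replicate 2. The summed membrane list was lowest in 5NC, at 87.0 to 88.5 CPM against 94.5 to 119 in the other 9 libraries. So was the summed list of iron uptake and haem turnover, at 1000 to 1010 CPM against 1070 to 1470. Hmox2 was the largest part of that sum, at 460 to 600 CPM, and not every gene of the list was lowest in 5NC. In the remaining red cell and haem lists the 5NC sums overlapped those of other groups. How often a summed list sets 5NC apart was not tested.

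Markers of other blood cells and of neighbouring tissue are given for comparison. In 3NC replicate 2, with the highest leukocyte sum, the globins summed to 55.0 CPM, between 29.7 and 74.3 CPM in the other 3NC libraries. Platelet genes summed to 7.92 to 11.7 CPM over all libraries, with no group apart. Epididymal genes summed to 404 CPM in knockdown replicate 1 and 388 CPM in 5NC replicate 2, and to 151 to 241 CPM in the other 10 libraries. Cst8 held 132 to 180 CPM in every library. Lcn5 and Lcn8 were at 0 in all 5NC libraries and had means of 9.19 and 13.6 CPM with knockdown, so the high sums were not made up of the same genes. Knockdown replicate 1 was also the knockdown library with the highest Hbb-bs and the highest share of Hbb-bs and Hbb-bt. Without it the log2 fold changes in knockdown against 3NC were -1.97 for Hbb-bs and -1.74 for Hbb-bt (edgeR adjusted p = 0.818 for each), and the mean share with knockdown was 19.4%. Without 3NC replicate 2, the log2 fold changes in knockdown against 3NC were -1.09 for Hbb-bs, -0.59 for Hbb-bt and 0.42 for Hbb-b1 (edgeR adjusted p = 0.812, 0.879 and 0.818). The part of leukocytes, platelets or epididymis in the member values was otherwise not tested.

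A few of the genes near the beta globin cluster also differed in 5NC. Within 2 Mb of the beta cluster (chromosome 7, 103812524 to 103853216) the table holds 125 genes, of which 51 were tested. In 5NC against 3NC, 3 of these passed as lower in 5NC and 0 as higher by edgeR's test, 2 passed with limma-voom (Trim6 and Dchs1) and 7 with DESeq2. That is 5.88% of the neighbours lower, where 0.152% of all tested genes were. These genes were known from earlier results of the data, and nothing particular to the region is called from their count.

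The 3 were Trim5 and Trim6, genes of the tripartite motif family 410 and 366 kb from the cluster, and Dchs1, a protocadherin gene 1900 kb away. Trim6 had 3.08, 3.11 and 2.95 CPM in 5NC against 10.3, 11.4 and 9.60 in 3NC (log2 fold change -1.78 ± 0.236, SE, adjusted p = 0.0118). Dchs1 had 5.40, 5.22 and 5.39 CPM in 5NC against 22.4, 19.0 and 12.6 in 3NC (-1.75 ± 0.205, adjusted p = 0.00537). Trim5 was low, at 0.126, 0.0706 and 0.144 CPM against 1.92, 3.76 and 0.744 (-4.14 ± 0.699, adjusted p = 0.0404). As for Hbb-bs, the 5NC libraries lay below every library of 3NC. Dchs1 passed on leaving out any 1 library, Trim6 did not without any 1 of the 5NC libraries (edgeR adjusted p up to 0.104), and Trim5 did not without any 1 of them or 3NC replicate 1 (up to 0.222).

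In overexpression against 5NC, 2 of the 51 passed as higher, 3.92% where 0.256% of all tested genes did. Dchs1 had 26.0, 20.6 and 30.5 CPM with overexpression (log2 fold change 2.27 ± 0.206, SE, edgeR adjusted p = 0.000562), and Trim6 6.77, 7.42 and 8.82 CPM (1.33 ± 0.236, adjusted p = 0.0353). Trim5 had 0.526, 0.587 and 0.597 CPM (adjusted p = 0.186). Dchs1 passed on leaving out any 1 library, and Trim6 only on leaving out overexpression replicate 2 (edgeR adjusted p up to 0.202 otherwise). These values rest on the same 5NC libraries. With limma-voom 1 passed (Dchs1) and with DESeq2 7. In knockdown against 3NC and in overexpression against knockdown 0 of the 51 passed edgeR's test, and DESeq2 called 0 and 1 and limma-voom 0. At an unadjusted p under 0.05 by edgeR there were 14 of the 51 in overexpression against 5NC and 9 in knockdown against 3NC. There were 12 in 5NC against 3NC and 3 in overexpression against knockdown. Over all tested genes the shares were 15.3%, 8.69%, 12.9% and 2.09%. The neighbours' shares lay above these in all 4 comparisons, and nothing is called from them, since some of these genes were known from earlier results. Within 1 Mb of the alpha cluster, 18 of 20 genes were tested and 0 passed edgeR's test in any of the 4 comparisons, with 1 (overexpression against 5NC), 2 (knockdown against 3NC), 5 (5NC against 3NC) and 0 (overexpression against knockdown) at an unadjusted p under 0.05, where all tested genes had 15.3%, 8.69%, 12.9% and 2.09%. DESeq2 called 2 of them in 5NC against 3NC, Bod1 and Efcab9, and limma-voom 0.

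**Figure D5:**
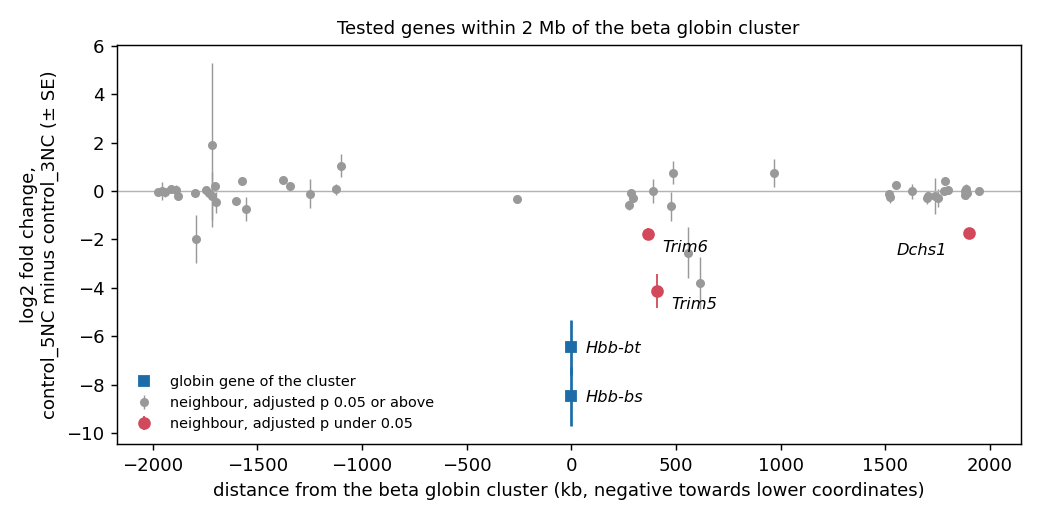
Log2 fold change of 5NC against 3NC (± SE) for the tested genes within 2 Mb of the beta globin cluster, by distance from it in kb; genes that passed edgeR's test are named. Trim5, Trim6 and Dchs1 lie below 0, at -4.14, -1.78 and -1.75.

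Genes whose pattern over the 12 libraries was nearest to that of a member were ranked by the root mean square difference of mean-centred log2(CPM + 0.5), over genes with a mean of at least 1 CPM. For Hbb-bs the nearest was Hbb-bt (0.777, beside a median of 1.75 over all genes), then A530064D06Rik (0.848) and LOC108168592 (0.879). A530064D06Rik, on chromosome 17, had 0.126, 0.0706 and 0 CPM in 5NC and 4.46 to 7.43 CPM in the other 9 libraries. For Hbb-b1 the nearest was Hbb-b2 (0.308, median 0.691), then Capns2 (0.383) and Zfp97 (0.385). Thus the gene nearest to Hbb-bs and the gene nearest to Hbb-b1 was in each case the other adult gene of its haplotype, and Hbb-bs and Hbb-bt share divided reads.

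Capns2, a calpain subunit gene on chromosome 8, had 4.40, 3.95 and 4.03 CPM in 5NC and 1.06 to 1.51 CPM in the other 9 libraries. For Hba-a1 the nearest were Tecr (0.192, median 0.481) and Ccdc85c (0.211), neither of them a red cell marker in the lists. Tecr, an enzyme of fatty acid elongation, was lowest in 3NC replicate 3 at 14.8 CPM, as was Hba-a1. For Alas2 they were Sod2 (0.086, median 0.24), Sec22c (0.0887) and Setd5 (0.089), genes of nearly even level. No globin gene was among the 3 nearest to Alas2, and Alas2 was not among the 3 nearest to Hba-a1, Hbb-bs or Hbb-b1.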

How the data were processed

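Members and gene lists were chosen with earlier results of these data known. The authors deposited 1 table with estimated counts per gene ("read_count", per the file headers); 88.2% of the values are whole. A second set of columns, headed without a unit, fits FPKM as deposited by the authors, judged from the values. Per the submitters' processing notes, the genome build was mm10. The aligner, the read counter, its annotation, strand handling and filtering: not given in the sources used here. The 18 columns of 9 other samples were not used.

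Estimated counts were rounded and fitted in R 4.3.3 with edgeR 4.0.16: filterByExpr (minimum count 10) kept 16395 of 20788 genes, TMM scaling factors ran from 0.954 to 1.05, and 1 robust quasi-likelihood model of group means covered all 12 libraries (common dispersion 0.0388, biological coefficient of variation 19.7%). P-values were adjusted by Benjamini-Hochberg over all tested genes in a contrast, threshold 0.05. Shares have exact (Clopper-Pearson) intervals. Groups and replicate numbers come from the titles. Library pairs within a group differed beyond counting error (a chi-square of 3.04 to 39 per degree of freedom), so none was treated as a copy. Genes named were the members, the leading genes of the lists, neighbours that passed, and the 3 genes nearest in pattern to Hba-a1, Hbb-bs, Hbb-b1 and Alas2; list genes closest to passing (Tmod1, Gata1, Slc25a37, Hp) and some other list genes were chosen after their values were seen. Some genes that the rule names are not reported here. Alternatives were DESeq2 1.42.0, limma-voom (limma 3.58.1), other scalings, no filter, the groups compared alone, a replicate block, a term for the 3 libraries of lowest total, leaving out each library, and, chosen after seeing the data, the share from Hbb-bt and Hbb-b2 alone.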

Additional observations from a re-analysis of the deposited data

How the results depend on the processing

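Counts of genes passing moved most. For 5NC against 3NC, 40 genes passed (15 higher, 25 lower), and 305 with DESeq2, 13 with limma-voom, 9 with only those groups, 6 with a term for the 3 libraries of lowest total, 68 (34 higher, 34 lower) with total counts alone, and 7 to 126 on leaving out 1 library (7 without 5NC replicate 3, 126 without 3NC replicate 2). For overexpression against 5NC, 78 passed, and 742 with DESeq2, 163 with total counts alone and 5 to 217 on leaving out 1 library (217 without overexpression replicate 2). For knockdown against 3NC, 3 passed, and 23 with DESeq2, 0 with only those groups and 1 to 9 on leaving out 1 library. For overexpression against knockdown, 0 passed, and 12 with DESeq2 and 0 to 2 on leaving out 1 library. Taken from Hbb-bt and Hbb-b2 alone, an alternative chosen after seeing the data, the mean share in 5NC was 0.293% in place of 0.134%. The causes were not tested.

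The labels do not say that replicate numbers pair libraries, and correlations of same-numbered deviations ran from -0.152 to 0.383, so the numbers were not taken as pairs. With a replicate block 269 genes passed in overexpression against 5NC, Tmod1 passed there (adjusted p = 0.0467), and Hbb-bs missed the threshold there (0.0595) and in 5NC against 3NC (0.0709), as did Hbb-bt (0.0785).

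The call on Hbb-bs in overexpression against 5NC was also lost with limma-voom (adjusted p = 0.112), without the filter (0.0667), with only those groups (0.0504), with the lowest-total term (0.0723) and without any 1 of 5 of the 6 libraries, overexpression replicate 2 being the exception. In 5NC against 3NC, Hbb-b1 missed the threshold with limma-voom (0.0526), only those groups (0.0522), the lowest-total term (0.107) and without any 1 of 5 libraries, and kept it without 3NC replicate 2 (0.0416). Dchs1 in 5NC against 3NC missed it with only those groups (0.0577) and the lowest-total term (0.0717). DESeq2 added Hbb-b1 in overexpression against 5NC (0.0413) and Hbb-b2 in 5NC against 3NC (0.000787). Directions of Hbb-bs, Hbb-bt, Hbb-b1 and Hbb-b2 held in all alternatives run for the 3 comparisons with a control.

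Small log2 fold changes changed sign, all with an adjusted p of at least 0.818. Alas2 in 5NC against 3NC was 0.0071 with total counts alone and -0.063 to 0.023 on leaving out 1 library, -0.22 to 0.038 in knockdown against 3NC and -0.22 to 0.042 in overexpression against knockdown. On leaving out 1 library Hba-a1 ran from -0.085 to 0.73 in 5NC against 3NC, from -0.078 to 0.74 in knockdown against 3NC, both lowest without 3NC replicate 3, and from -0.19 to 0.21 in overexpression against 5NC. In overexpression against knockdown, Hba-a1 was 0.10 with the lowest-total term and -0.20 to 0.20 on leaving out 1 library. There Hbb-bs was -0.17 with limma-voom and -0.95 to 0.75 on leaving out 1 library, and Hbb-bt 0.035 with the lowest-total term and -0.92 to 0.31.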

Other observations

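The ratio of summed beta globin to summed alpha globin, both in FPKM, fell into 2 separate ranges that did not follow the groups. It was 0.599, 1.03 and 0.9 in 5NC replicates 1, 2 and 3, and 0.532, 0.957 and 0.519 with overexpression. It was 0.515, 0.874 and 0.919 in 3NC, and 0.514, 0.501 and 0.5 with knockdown. Thus 7 libraries lay between 0.5 and 0.599, 5 lay between 0.874 and 1.03, and none lay between those ranges. The 3 libraries with the lowest total counts were all among the 5, and the other 2 were 3NC replicates 2 and 3. The ratio was calculated after the data were seen, and whether the total count has a part in it was not tested.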
